A study of Homo sapiens with 12 samples.

Results

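The BBSome is a protein complex that moves membrane proteins into and out of the primary cilium, the single sensory antenna of most vertebrate cells. BBS1, BBS2, BBS4, BBS5, BBS7, BBS9 and TTC8 (also called BBS8) encode core subunits of it. BBS10 and BBS12 encode chaperonin-like proteins that act with the CCT/TRiC chaperonin in assembling the complex. Loss of any of these genes causes Bardet-Biedl syndrome, a ciliopathy with retinal degeneration, obesity and extra digits. The genes were taken by name, and each of their probes in the platform annotation was followed. A probe was kept where its detection p was under 0.01 on at least 2 of the 12 arrays. By that rule 14 of 16 annotated probes, from 9 of 9 genes, were kept, of 19161 kept probes among the 47323 on the array. The core had 12 of the 14 probes and the chaperonin-like genes had 2.

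Cells of the androgen-responsive prostate cancer line LNCaP received an Ambion pre-miR for miR-135b (miR-135b cells) or a scrambled negative control precursor (Scr cells). Either was given at 20 nM, and RNA was taken 12, 24 or 36 h later. The 6 groups held 2 arrays each, which the series' text calls biological repeats, numbered 1 and 2. Transfection was transient in 1 cell line, and the mature microRNA was not among the values used here, so its rise could not be checked. In such bulk samples fewer cells of a type and less RNA per cell cannot be told apart. The series' title gives its question as what an excess of this microRNA does to gene expression in these cells.

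Each array detected 15967 to 17856 probes, and the r of the 2 repeats of a group was 0.979 to 0.989. The 7 luminal prostate markers measured, among them KLK3, TMPRSS2 and FOLH1, were each detected on 12 of 12 arrays. The basal keratins KRT5 and KRT14, the leukocyte genes PTPRC and CD3E, and the fibroblast genes COL1A2, DCN and LUM were detected on 0 arrays, while COL1A1 and CD68 were detected on 12. Of the 3 CD68 probes, that of highest mean gave -0.10 and did not pass, and ILMN_1714861 fell by 0.79 in miR-135b cells (limma's adjusted p = 0.00377). That probe lay between 5.79 and 7.02 on miR-135b arrays and between 7.04 and 7.46 on Scr arrays, and ILMN_2267914 gave -0.44. The part of CD68-expressing cells in the BBSome values was not tested. Adjusted p-values below are limma's, over all 19161 kept probes, with 0.05 as the threshold.

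The transfected precursor gives rise to hsa-miR-135b-5p, which in RefSeq (GRCh38.p14) lies at chr1:205448361-205448383 on the minus strand. It is shown because it is the agent itself, with its seed, bases 2 to 8, in capitals.
hsa-miR-135b-5p: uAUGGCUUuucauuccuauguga
RFX transcription factors drive many ciliary genes through the X-box, a pair of facing half-sites. RefSeq promoter windows, from 250 bases before to 50 after an annotated start, were at hand for 8 of the 9 genes, in 9 windows. The half-site was searched as GTTGCC and as GTTGCT on both strands, forms that differ in their last base and so cannot match at 1 place on 1 strand. The letters were chosen after the windows and the values had been seen, and a match is a description of the sequence alone. GTTGCC stood in 4 of 9 windows, against 12.2% of 35114 promoters, and GTTGCT in 2 of 9, against 12.8%. A whole X-box, searched as GTTNCC, any 2 bases and GGNAAC, stood in 0 of 9 windows and in 0.49% of all promoters. The windows of BBS1, BBS12 and BBS10 are given from 5′ to 3′ on the gene's strand, with half-sites in capitals. BBS1 is shown as the core gene that differed most below, and BBS12 and BBS10 as the chaperonin-like genes. BBS1 lies at chr11:66510385-66510684 (plus strand), BBS12 at chr4:122732454-122732753 (plus strand) and BBS10 at chr12:76348366-76348665 (minus strand).
BBS1: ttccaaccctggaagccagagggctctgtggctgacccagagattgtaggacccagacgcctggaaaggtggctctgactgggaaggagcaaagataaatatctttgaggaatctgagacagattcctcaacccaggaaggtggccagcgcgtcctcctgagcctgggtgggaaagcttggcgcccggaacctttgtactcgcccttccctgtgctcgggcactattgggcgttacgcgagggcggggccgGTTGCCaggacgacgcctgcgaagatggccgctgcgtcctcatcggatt
BBS12: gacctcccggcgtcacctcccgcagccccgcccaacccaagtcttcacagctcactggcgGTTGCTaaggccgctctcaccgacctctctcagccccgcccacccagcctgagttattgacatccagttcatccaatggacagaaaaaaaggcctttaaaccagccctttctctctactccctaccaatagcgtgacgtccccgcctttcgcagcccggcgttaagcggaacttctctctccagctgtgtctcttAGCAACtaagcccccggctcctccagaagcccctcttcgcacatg
BBS10: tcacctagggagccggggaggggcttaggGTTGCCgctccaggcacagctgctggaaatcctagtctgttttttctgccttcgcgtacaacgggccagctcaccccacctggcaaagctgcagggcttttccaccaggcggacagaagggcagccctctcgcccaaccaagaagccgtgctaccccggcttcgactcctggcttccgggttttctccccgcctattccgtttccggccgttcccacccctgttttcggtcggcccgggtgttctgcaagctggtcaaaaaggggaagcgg
Counting the annotated start as 0, the half-site of BBS1 began at base 1 and that of BBS10 at -221. BBS12 had GTTGCT at -190 and, on the opposite strand, at 5. GTTGCC was also found in the windows of BBS5, at -14, and TTC8, at -34.

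Over the mean of the 3 times, 0 of 14 BBSome probes passed the threshold by limma, against 2.95% of all probes. Repeat numbers were found to pair miR-135b and Scr arrays of the same time. With that pairing BBS1, a core subunit that contacts the cargo and the GTPase ARL6, passed as higher in miR-135b cells. BBS12 passed too, but it had been kept through miR-135b arrays alone, so it is left out of the comparison with all probes. That leaves 1 of 13, against 6.51% of all probes called in the paired fit and 2.88% called higher. Without the pairing, 4 probes had an unadjusted p under 0.05 and were higher, or 3 of 13 without BBS12, against 7.21% of all probes, and 0 were lower, against 7.67%. The median log2 fold change was 0.07 over the 14 probes and 0.01 over all probes.

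**Figure D1:**
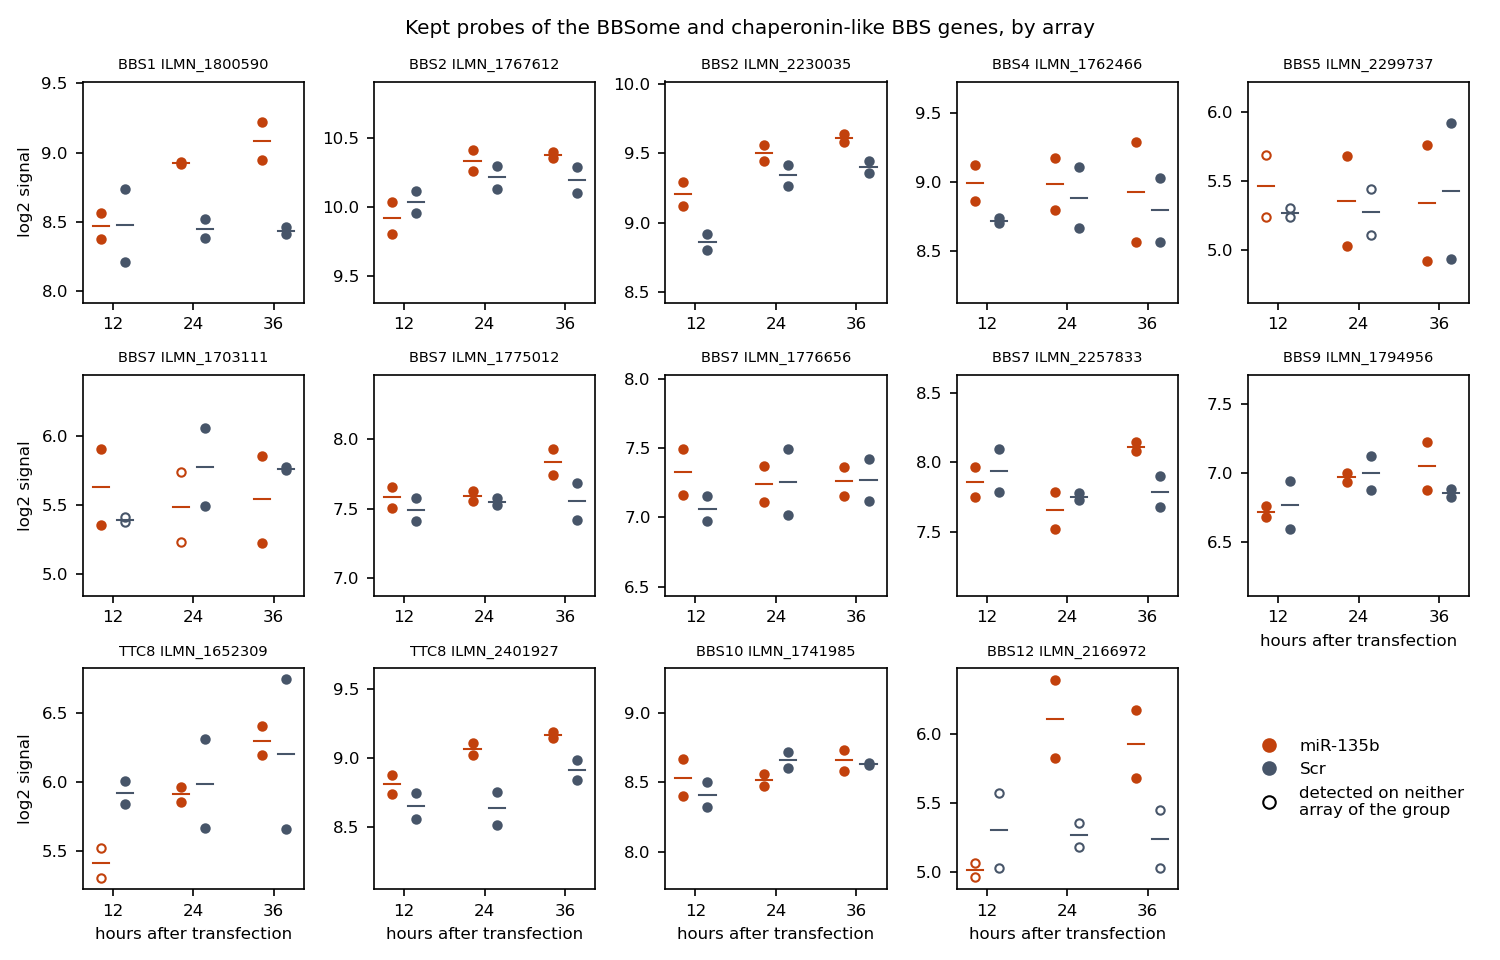
log2 signal (vertical axes, each spanning its own range) of the 14 kept probes on the 12 arrays at 12, 24 and 36 h, with miR-135b arrays left of Scr arrays and lines at group means. Open circles mark groups in which neither array detected the probe; BBS1 separates at 24 and 36 h, and BBS12 is open in all Scr groups.

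Among the core subunits, BBS1 differed most. Its log2 signal in miR-135b cells was 8.56 and 8.38 at 12 h, 8.92 and 8.93 at 24 h, and 8.94 and 9.22 at 36 h. In Scr cells it was 8.74 and 8.21 at 12 h, 8.52 and 8.38 at 24 h, and 8.46 and 8.41 at 36 h. The groups overlapped at 12 h, and at 24 and 36 h both miR-135b arrays lay above both Scr arrays. The mean log2 fold change was 0.37 ± 0.11 (SE), with a 95% interval of 0.13 to 0.61 and adjusted p = 0.117, or 0.0468 with the pairing. With the repeat number as a block over all times in place of pairs within a time, limma's adjusted p was 0.0950 and BBS1 did not pass. At 36 h BBS1 averaged 9.08 ± 0.19 in miR-135b cells and 8.43 ± 0.03 in Scr cells (SD, n = 2 each), a difference of 0.65 ± 0.19 (SE; limma's adjusted p = 0.185, or 0.0691 with the pairing). The 2 Scr arrays of 12 h were 0.53 apart, the widest gap between repeats of this probe.

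TTC8, a subunit rich in tetratricopeptide repeats, gave 2 kept probes. ILMN_2401927 read 8.74 and 8.88 at 12 h, 9.11 and 9.02 at 24 h, and 9.19 and 9.15 at 36 h in miR-135b cells. In Scr cells it read 8.56 and 8.75, 8.76 and 8.52, and 8.84 and 8.99 at the same times. The miR-135b array was the higher in 6 of 6 same-number pairs, and the groups overlapped at 12 h alone. The mean difference was 0.28 ± 0.08 on the log2 scale (adjusted p = 0.121, or 0.0533 with the pairing). The other probe, ILMN_1652309, was detected on 4 of 6 miR-135b arrays and 4 of 6 Scr arrays and gave -0.16.

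BBS2, which pairs with BBS7 in the complex, also gave 2 probes. ILMN_2230035 read 9.12 and 9.29 at 12 h, 9.45 and 9.56 at 24 h, and 9.64 and 9.58 at 36 h in miR-135b cells. In Scr cells it read 8.80 and 8.92 at 12 h, 9.26 and 9.42 at 24 h, and 9.36 and 9.45 at 36 h. Both miR-135b arrays exceeded both Scr arrays at each time. Its mean difference was 0.24 ± 0.08 (adjusted p = 0.162, or 0.0710 with the pairing). ILMN_1767612 gave 0.06 ± 0.08, so the 2 probes of this gene did not give the same size.

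The remaining core subunits differed less. BBS4, a tetratricopeptide repeat subunit that binds the centriolar satellite protein PCM1, was higher in miR-135b cells in 6 of 6 pairs, by 0.17 ± 0.16 (adjusted p = 0.719). Its repeat 1 exceeded repeat 2 in 5 of 6 groups. The 4 kept probes of BBS7 gave -0.09, 0.14, 0.08 and 0.05. BBS9, a scaffold subunit, gave 0.04 ± 0.10, and BBS5, which has pleckstrin homology-like domains and was detected on 3 of 12 arrays, gave 0.06 ± 0.22. The remaining probe of BBS9 and that of BBS7 were detected on 0 arrays and were not tested.

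Of the chaperonin-like genes, BBS10 showed no difference beyond the spread of its repeats. It read 8.40 and 8.67 at 12 h, 8.47 and 8.56 at 24 h, and 8.58 and 8.74 at 36 h in miR-135b cells. In Scr cells it read 8.50 and 8.32, 8.72 and 8.60, and 8.64 and 8.62 at those times. Its mean difference was 0.00 ± 0.08, with a 95% interval of -0.18 to 0.19, and both miR-135b arrays lay below both Scr arrays at 24 h.

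BBS12 read 4.96 and 5.06 at 12 h, 5.82 and 6.39 at 24 h, and 5.68 and 6.17 at 36 h in miR-135b cells. In Scr cells it read 5.03 and 5.57, 5.18 and 5.35, and 5.03 and 5.45. It was detected on 3 of 6 miR-135b arrays, 0 of them at 12 h, and on 0 of 6 Scr arrays. Having been kept through miR-135b arrays alone, it had to be higher there, and neither its call nor its separation at 24 and 36 h supports anything about the class. Scr levels being below detection, its mean over the miR-135b arrays of 36 h, which both detected it, was at least 1.20-fold above them (limma's adjusted p = 0.344). That value takes no account of the spread between arrays, and the probe was kept partly through these same arrays. At 24 h, where 1 of 2 arrays detected it, the same calculation gave 1.30-fold (limma's adjusted p = 0.292). For each value, a Scr array counted at its own reading or at the dimmest detected probe of that array, whichever was brighter. A miR-135b array counted at its own reading even where undetected, so the value at 24 h is not a lower bound. The fitted mean of 0.41 ± 0.15 (adjusted p = 0.225, or 0.0457 with the pairing) corresponds to 1.01-fold by that calculation, which is no lower bound either.

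**Figure D2:**
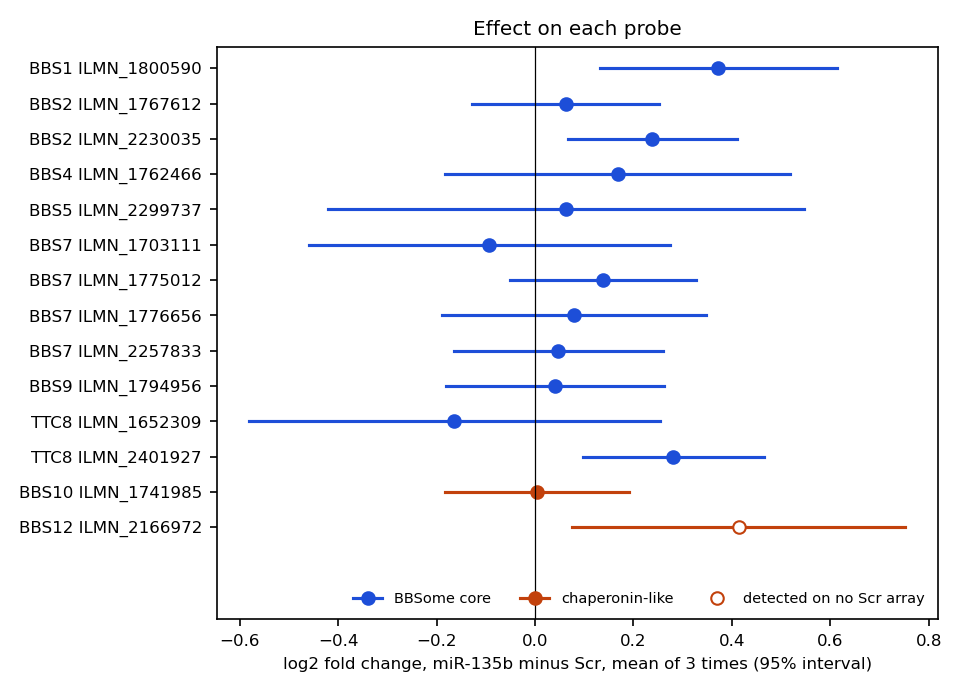
log2 fold change of each kept probe, miR-135b minus Scr, averaged over 3 times, with 95% intervals from the unpaired fit. BBS1 lies at 0.37 and BBS10 at 0.00; the open point of BBS12, at 0.41, is a fitted value for a probe detected on no Scr array.

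As classes, the 12 core probes had a median of 0.07 and the 2 chaperonin-like probes one of 0.21, or 0.01 with BBS12 at its calculated value above. With 2 chaperonin-like probes, 1 of them near background, no difference between the classes was tested. Same-number pairs were higher in miR-135b cells in 6 of 6 cases for 4 of 14 probes (1 each of BBS2, BBS4, BBS7 and TTC8), against 6.96% of all probes. The other probes of BBS2, BBS7 and TTC8 were higher in 2 to 5 of 6 pairs. Across the 12 arrays, probes of different genes correlated at r between -0.54 and 0.76, with a median of 0.15 over 83 pairs. Probes of 1 gene correlated at -0.13 to 0.73, with a median of 0.19 over 8 pairs. These pairs share arrays and scaling.

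By time, 0 of 14 probes passed at 12, 24 or 36 h, against 0%, 0.459% and 0.919% of all probes, and 0 passed with the pairing, against 0%, 0.892% and 2.29%. In the higher direction alone the paired shares were 0%, 0.344% and 0.971%. At an unadjusted p under 0.05, 1, 3 and 2 probes were higher at 12, 24 and 36 h by limma, against 2.07%, 4.56% and 5.18%, and BBS12 was among them at 24 and 36 h. Without BBS12, 2 of 13 were higher at 24 h and 1 of 13 at 36 h. At 12, 24 and 36 h 0 were lower, against 2.3%, 5.11% and 6.03%. Both miR-135b arrays lay above both Scr arrays for 3 probes at 12 h, 4 at 24 h and 7 at 36 h, against 16.1%, 19.9% and 18.5% of all probes. Without BBS12 these were 3 of 13 at 24 h and 6 of 13 at 36 h. Both miR-135b arrays lay below both Scr arrays for 1 probe at 12 h (TTC8 ILMN_1652309, detected on neither miR-135b array) and 1 at 24 h (BBS10). At 24 and 36 h alike, both miR-135b arrays lay above both Scr arrays for BBS1, BBS2 ILMN_2230035 and TTC8 ILMN_2401927, 3 of 13 without BBS12, against 7.92%. BBS1 gave -0.01 at 12 h, 0.48 at 24 h and 0.65 at 36 h. Its effect at 36 h minus that at 12 h was 0.65 ± 0.26, with limma's adjusted p = 0.999, and 0 of 14 probes passed in this contrast, against 0% of all probes. At an unadjusted p under 0.05, 2 probes (BBS1 and BBS12) had the higher effect at 36 h, against 2.34%, and 0 the lower, against 2.53%. BBS12 was kept through miR-135b arrays of 24 and 36 h alone, and without it 1 of 13 had the higher effect.

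**Figure D3:**
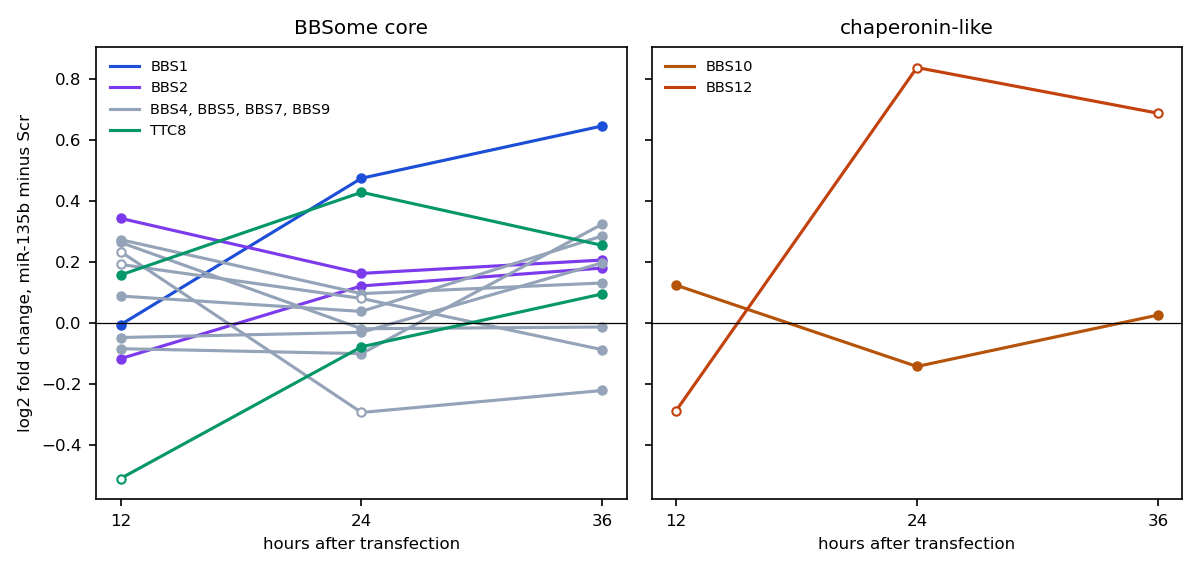
log2 fold change, miR-135b minus Scr, of each kept probe at 12, 24 and 36 h, core on the left and chaperonin-like on the right. Open points mark probes detected on neither array of at least 1 group; BBS1 is at -0.01, 0.48 and 0.65, while BBS10 stays between -0.14 and 0.12.

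Within miR-135b cells, 6 of 14 probes were higher at 36 h than at 12 h at an unadjusted p under 0.05, against 7.11% of all probes, and 0 were lower, against 7.61%. After adjustment 0 passed, against 0.0678%, or 13 probes, a count that other settings put between 0 and 377. The 6 probes were BBS1 (0.61 ± 0.19 on the log2 scale), both BBS2 probes (0.46 and 0.41), TTC8 ILMN_2401927 (0.36), TTC8 ILMN_1652309 and BBS12. The last 2 were detected on neither miR-135b array at 12 h, so they were at least 1.57-fold and at least 1.21-fold higher at 36 h (limma's adjusted p = 0.246 and 0.160). BBS12, that TTC8 probe and BBS5 were detected at 36 h but not at 12 h in these cells. Leaving them out, 4 of 11 probes were higher at an unadjusted p under 0.05. Within Scr cells the BBS2 probe ILMN_2230035 alone did so, against 6.06%, at 0.54 ± 0.13 (limma's adjusted p = 0.246), and 0 were lower, against 5.77%. After adjustment 0 passed there, against 0.0104%. Those counts do not show that the time courses differ: the test of that difference is the contrast above, which called 0.

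Genes whose profile over the 12 arrays was most like that of BBS1 were STK11IP (Pearson r = 0.922), APPL2 (0.918), TMEM179B (0.917), ZBTB5 (0.916) and GASK1B (0.915). GASK1B rose by 0.79 ± 0.09 in miR-135b cells (limma's adjusted p = 0.0019), while the other 4 gave 0.21 to 0.30 and did not pass. These correlations share arrays and scaling with the BBS1 values.

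Around the complex, 1 of 4 assembly partners rose, against 2.95% of all probes called in either direction. LZTFL1, which holds the BBSome back from the cilium, read 6.89 and 7.23 at 12 h, 7.42 and 7.34 at 24 h, and 7.51 and 7.65 at 36 h in miR-135b cells. In Scr cells it read 6.85 and 6.75, 6.58 and 6.61, and 6.83 and 6.33. Both miR-135b arrays lay above both Scr arrays at each time. It rose by 0.68 ± 0.11 over the 3 times (adjusted p = 0.00893) and by 1.00 at 36 h (adjusted p = 0.0457). With any 1 of the 12 arrays left out, LZTFL1 no longer passed at 36 h (adjusted p 0.0676 to 0.267), while its mean passed in 12 of 12 such fits. BBIP1, the smallest BBSome subunit, gave 0.06 ± 0.20, and MKKS, which also encodes a chaperonin-like protein, 0.01 ± 0.07. ARL6, the GTPase that recruits the BBSome to membranes, was detected on 0 of 6 miR-135b arrays and 4 of 6 Scr arrays. Its fitted difference was -0.30 ± 0.09 (adjusted p = 0.128, or 0.0465 with the pairing), and its bound allowed no fold over the mean. At 24 h its mean was at least 1.11-fold lower in miR-135b cells (limma's adjusted p = 0.295), a bound that takes no account of the spread between arrays. Kept through Scr arrays alone, ARL6 had to be lower in miR-135b cells, and its paired call supports nothing.

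The CCT/TRiC chaperonin had 0 of 8 genes called, against the same 2.95%, and a median of 0.08. The list of the RAB8 module, which acts with the BBSome in ciliary membrane growth, also held PCM1 and DCTN1. It had 0 of 7 genes called and a median of 0.03. Of 7 cargo receptors SMO, the Hedgehog signal transducer, was measured, at -0.18 ± 0.13. Of 12 other Bardet-Biedl syndrome genes 10 were measured, with a median of 0.18 and 0 called without the pairing. IFT172 (0.43 ± 0.14) and IFT74 (0.32 ± 0.13), subunits of the intraflagellar transport train, did not pass without the pairing and passed with it (adjusted p = 0.0162 and 0.0306). They were 2 of 10 genes called higher in the paired fit, against 2.88% of all probes. Over the mean of 3 times each passed in 1 of 10 alternatives, the pairing, so neither passed with the block of the repeat number. IFT172 passed with the pairing at 36 h too, at 0.96 (limma's paired adjusted p = 0.0226, or 0.0436 with the block of the repeat number). It was 1 of 10 genes called higher with the pairing then, against 0.971% of all probes. At that time it passed in 2 of 10 alternatives and in 0 of 12 unpaired fits with 1 array left out. IFT172 and IFT74 are named because of those values.

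Of 6 cilium transcription factors 5 were measured and 0 passed without the pairing, against 2.95% of all probes. With the pairing 1 of 5, RFX3, was called higher, against 2.88% of all probes. RFX3 gave 0.30 ± 0.23 (adjusted p = 0.644, or 0.0468 with the pairing), and its other 3 probes 0.14, 0.35 and 0.52. The probe at 0.14 was detected on 2 of 6 miR-135b arrays and 2 of 6 Scr arrays, and that at 0.35 on 3 and 1. The probe at 0.52, ILMN_1779488, also passed with the pairing alone (limma's adjusted p = 0.0842, or 0.0367 with the pairing). RFX1 gave 0.28, RFX5 0.18, RFX7 0.15 and RFX2 -0.03, while FOXJ1, the master regulator of motile cilia, was detected on 0 arrays. Of 5 motile cilium markers RSPH1, a radial spoke gene, was measured. It lay between 6.12 and 8.27 on miR-135b arrays and between 5.65 and 6.34 on Scr arrays, and rose by 1.22 ± 0.11 (adjusted p = 0.000776). FOXJ1 and DNAI1 were detected on 0 arrays, and DNAH5 and CFAP43 on 1 each. The part of motile cilium genes in the BBSome values was not tested.

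**Figure D4:**
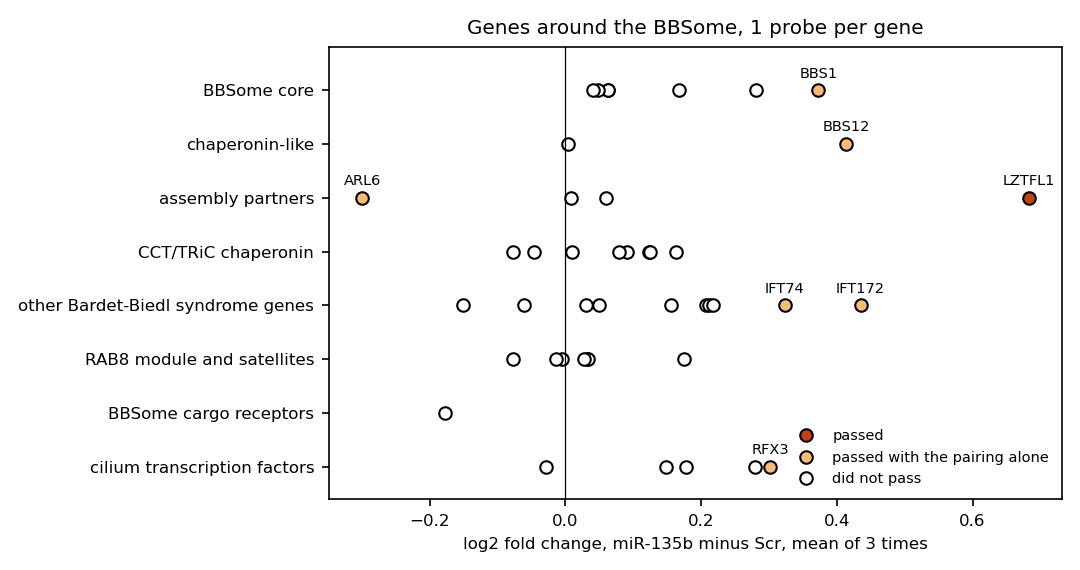
log2 fold change, miR-135b minus Scr, mean of 3 times, of 1 probe per gene in each list. LZTFL1, at 0.68, is the 1 filled dark point, passed without the pairing; the light filled points, named beside them, passed with the pairing alone, and ARL6, at -0.30, was detected on no miR-135b array and BBS12, at 0.41, on no Scr array.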

How the data were processed

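LNCaP RNA was measured on 12 Illumina arrays, 2 per treatment and time. Per the file headers, one deposited table gives each probe's non-normalized signal intensity with its detection p-value. The authors' own log2 values, deposited separately and quantile normalized as judged from their shared distribution, served as an alternative. The submitters' processing notes name GenomeStudio 2010.2 and lumi 1.8.3 without saying what either did. Intensities were background corrected with limma 3.58.1 in R 4.3.3 (normexp, negative controls inferred from detection p, offset 16), quantile normalized and put on the log2 scale. The offset shrinks fold changes of dim probes. Probes detected on 2 or more arrays were tested with lmFit and eBayes on 6 group means (6 residual degrees of freedom), two-sided, with Benjamini-Hochberg adjustment over 19161 probes. On simulated data with 200 of 19161 probes changed by a log2 value of 1, the mean of 3 times recovered 195 in the unpaired fit and 192 in the paired fit, with 14 and 10 false calls. Differences shared by a pair were added for the paired fit alone, so the 2 fits did not see the same data. Member probes differed by -0.16 to 0.41, and recovery of changes that small was not simulated. The number of arrays limits precision.

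Whether repeat numbers pair arrays was read from deviations from group means. Same-number arrays of 1 time correlated at 0.44, 0.44 and 0.55, all over a limit of 0.1, while across times r was -0.07 to 0.29. Of the 6 correlations across times, 4 also exceeded 0.1, so the limit alone does not single out pairs within a time; pairs were formed there and the repeat number over all times was run beside them. The paired fit (3 residual degrees of freedom) is printed wherever a call differs with it. The correlations and the calls of both fits were seen in 1 session. Every kept probe of the 9 genes is named. Of the surrounding lists, called genes, the list labelled assembly partners and the transcription factors are named, at the probe of highest mean. Members and lists were chosen with earlier results of these data known. Alternatives were other background, scaling, filter, value source and block choices, and leaving out each array.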

Additional observations from a re-analysis of the deposited data

How the results depend on the processing

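Of 2065 member values recomputed under 10 alternatives and with each of 12 arrays left out, 1991 kept their sign. The other 74 changed sign with the threshold passed in neither setting. Filter and block choices leave a fold change as it was, as does leaving out an array of another time for a single time. Those signs could not change, and no member probe had passed in the unpaired fit. The count of kept signs therefore says little about how firm the directions are. Over the mean of the 3 times the count of called member probes, 0 in the unpaired fit, became 2 with a replicate block within each time (BBS1 and BBS12) and 1 with a replicate block of the repeat number over all times (BBS12, adjusted p = 0.0387). Leaving out 1 array gave 0 to 1, the 1 being BBS1 without repeat 1 of Scr at 12 h, at 0.46 (limma's adjusted p = 0.0493). Its adjusted p without each other array reached 0.249 at most. In miR-135b cells the count at 36 h against 12 h, 0, became 1 with the replicate block of the repeat number (BBS12). The pairing changed no other member's call. Over all probes the mean of 3 times gave 565 calls, against 355 with median scaling, 1248 with the pairing and 299 to 474 without 1 array. At 24 h, 88 probes passed, against 26 with median scaling, 155 with no background correction, 154 in the authors' values, 171 with the pairing and 0 to 79 without 1 array. The share called higher was 38.6%, against 73.1% with median scaling. At 36 h, 176 passed, against 76 with median scaling, 310 and 308 with no background correction and in the authors' values, 438 with the pairing and 7 to 88 without 1 array. At 12 h, 0 passed, against 10 with no background correction and in the authors' values alike, and 4 with an offset of 50, among probes detected on 12 arrays or with 1 probe per gene. Between 36 and 12 h in miR-135b cells 13 passed, against 257 with no background correction, 258 in the authors' values, 164 with an offset of 50, 203 among probes detected on 12 arrays, 141 with 1 probe per gene, 377 with the replicate block of the repeat number, 4 and 8 with median scaling and cyclic loess, and 0 to 2 without 1 array. In Scr cells 2 passed, against 18 in those first 2 settings and 1 with an offset of 50 or among probes detected on 12 arrays. LZTFL1 kept its call over the mean of 3 times in 22 of 22 alternatives, and at 36 h lost it with median scaling and with no detection filter. The alternatives for LZTFL1, ARL6, IFT172, IFT74 and RFX3 were added after seeing the data. Signal near background limits BBS5, BBS12, ARL6, 1 probe each of BBS7 and TTC8, and the RFX3 probes at 0.14 and 0.35.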
